A study of Homo sapiens with 4 samples.

Results

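The transcripts of 10 heat shock chaperones were followed in FaDu cells, an established hypopharyngeal carcinoma line of squamous type. The genes were chosen by name, as HSP90AA1, HSP90AB1, HSPA8, HSPA9, HSPA4, HSPH1, DNAJB1, HSPB1, HSPD1 and HSPE1. All 10 were found on a chromosome, each on 1 row of the 62077 rows of the expression table. RNA-Seq had been performed on 4 libraries, 1 for each group. N-scr was the scrambled control in normoxia, N-si the TET1 knockdown (TET1-si) in normoxia, H-scr the scrambled control in hypoxia and H-si the TET1 knockdown in hypoxia. Hypoxia was 19 h at 1% oxygen, with 5% CO2 and 94% nitrogen, and normoxia was air with 5% CO2. The knockdown was made with lentivirus expressing a short hairpin RNA, for which the study gives a single TET1 sequence, so effects of the hairpin other than on TET1 cannot be told apart from the knockdown. TET1 was listed at 0.129 FPKM (N-scr), 0.0493 (N-si), 0.331 (H-scr) and, with TET1-si in hypoxia, 0.122 (H-si). Each knockdown library was thus below its scrambled control, but all 4 levels were low, under the mean of 1 FPKM asked of genes compared below. Levels of 4 libraries in a row are given below in the order N-scr, N-si, H-scr, H-si.

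FPKM, the unit of every level given here, counts the sequenced fragments of a gene, scaled to the length of its exons and to the depth of the library. The depth behind it was 22.4 to 24.5 M reads per library, and the columns summed to between 723659 and 823105 FPKM. With 1 library in each group there was no replicate error, no test was run, and each difference is one between 2 libraries. FPKM is a share of the RNA sequenced, so less of a transcript and more of all other RNA in a cell cannot be told apart. Of 10 squamous epithelial markers, 9 were above 1 FPKM in all 4 libraries, and KRT14 was under 1 FPKM in N-si (0.487). The summed squamous markers ranged from 2804 FPKM in N-si to 10546 in H-scr. The keratins, SFN and TP63 were lower in both TET1-si libraries than in their scrambled controls. KRT14 had 42.1, 0.487, 99.9 and 1.41 FPKM and KRT5 had 2673, 524, 3993 and 1430 FPKM. The other squamous markers did not follow, as CDH1 (179, 267, 292 and 399 FPKM) and EPCAM (155, 206, 102 and 163 FPKM) were higher in both. DSP was lower with TET1-si in normoxia and higher in hypoxia. The fibroblast markers COL1A2, LUM and PDGFRA and the leukocyte marker CD3E were listed at 0 throughout. Of the other markers of stromal cells, COL1A1 and CDH5 were higher in each hypoxia library than in the normoxia library of the same knockdown state, and COL1A1 was lowest in N-scr (5.29 FPKM) and highest in H-si (37.0), as was CDH5 (8.75 and 45.5). The summed markers ranged from 5.29 to 37.0 FPKM for fibroblasts, from 19.9 to 26.8 for leukocytes and from 8.91 to 48.4 for endothelium, and the part of these and of the squamous markers in the results was not tested.

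Chaperones bind unfolded proteins and help them to fold without becoming part of the product. In the cytosol, HSP70 takes up new or unfolded chains that J-domain proteins deliver, HSP110 proteins exchange its nucleotide, and HSP90 matures kinases and steroid receptors passed on to it by co-chaperones. In the mitochondrial matrix, mortalin (HSPA9) draws proteins in, and the HSP60 barrel (HSPD1) with its HSP10 lid (HSPE1) folds them. The small heat shock protein HSP27 (HSPB1) holds unfolded proteins without using ATP. Many of these genes are driven by heat shock factor 1 (HSF1), which binds repeats of a GAA unit in their promoters. HSP90 is also known to hold HIF-1α, the oxygen-regulated factor, in a stable form.

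The chaperones together made up a larger share of the transcripts in normoxia than in hypoxia. The 10 genes summed to 8582, 6615, 4410 and 3321 FPKM. As a share of all FPKM this was 1.04%, 0.832%, 0.581% and 0.459% in the same order. HSPA8 had the highest level of the 10 in all 4 libraries and ranked 29 in N-scr among the 11907 protein-coding genes compared. HSP90AB1, HSP90AA1, HSPD1, HSPE1 and HSPA9 ranked from 42 to 226 there, and HSPH1, HSPA4, DNAJB1 and HSPB1 from 796 to 2166. HSPB1 had the lowest level of the 10 in N-scr, and DNAJB1 the lowest in N-si and H-scr. HSPB1 was alone in being higher in both hypoxia libraries than in both normoxia libraries, and the other 9 genes were lower in each hypoxia library than in the normoxia library of the same knockdown state, as were 36.1% of all genes compared.

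**Figure D1:**
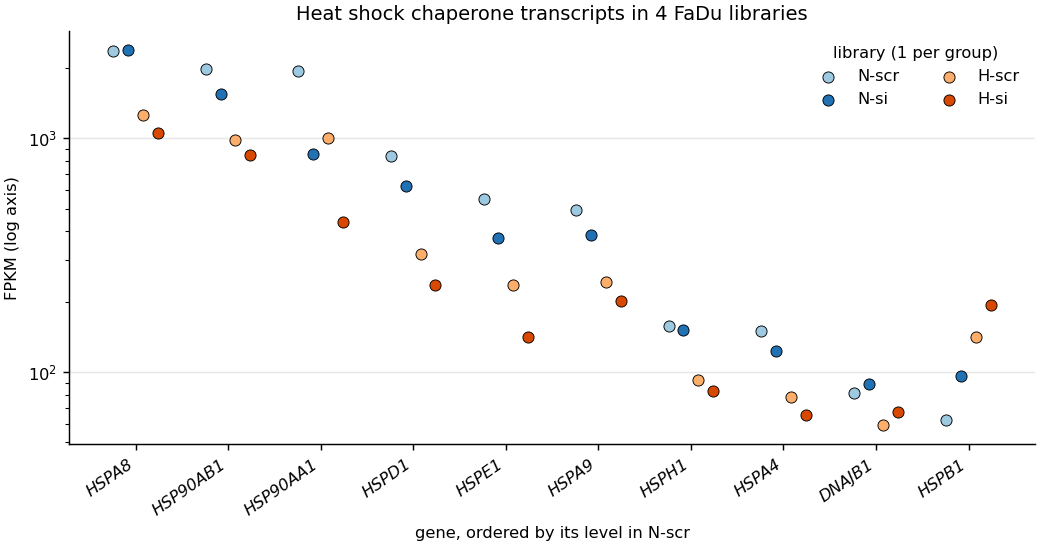
FPKM (log axis) of the 10 chaperone genes, with 1 point per library and no error bars because each group had 1 library. For 9 genes the orange hypoxia points lie below the blue normoxia points of the same knockdown state, while HSPB1 runs from 62.3 FPKM in N-scr up to 194 in H-si.

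The first comparison asked how the chaperones differed between hypoxia and normoxia in scrambled cells. Of the 10 genes, 4 were at least 2-fold lower in H-scr than in N-scr, where 4.53% of the 15057 genes compared were, all with a mean of 1 FPKM or more. These were HSPD1, HSPE1, HSPA9 and HSP90AB1. HSPB1 was at least 2-fold higher, as were 12.9% of all genes. The median log2 change of the 10 genes was -0.94, against 0.05 for all genes. HSP90AB1 lay just inside the 2-fold limit (2.001-fold) and HSP90AA1 just outside it (1.92-fold), and rescaling to TPM left 2 genes past the limit in place of 4.

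The same comparison in TET1-si cells, which uses neither of those libraries, gave a median log2 change of -0.92 against 0.03 for all genes. HSPA8, HSPD1 and HSPE1 were at least 2-fold lower in H-si than in N-si (background 8.66%), and HSPB1 was at least 2-fold higher (background 12.5%). At a limit of 1.5-fold, 8 of the 10 genes were lower in both knockdown states, as were 9.27% of all genes. Taken singly, that limit put 8 members lower in scrambled cells (background 13.7%) and 8 in TET1-si cells (background 19.0%), and 1 higher in each (background 23.2% and 23.7%). The exceptions were DNAJB1, with a smaller difference in the same direction, and HSPB1. Subtracting the scrambled from the TET1-si hypoxia response left differences that lay between -0.27 (HSPA8) and 0.13 (HSP90AB1) on the log2 scale. Over all genes the bulk of this difference, leaving out the lowest and the highest 10%, ran from -0.86 to 0.63. That range takes in genes down to a mean of 1 FPKM, where counting error is larger. It was not matched to the levels of the members.

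**Figure D2:**
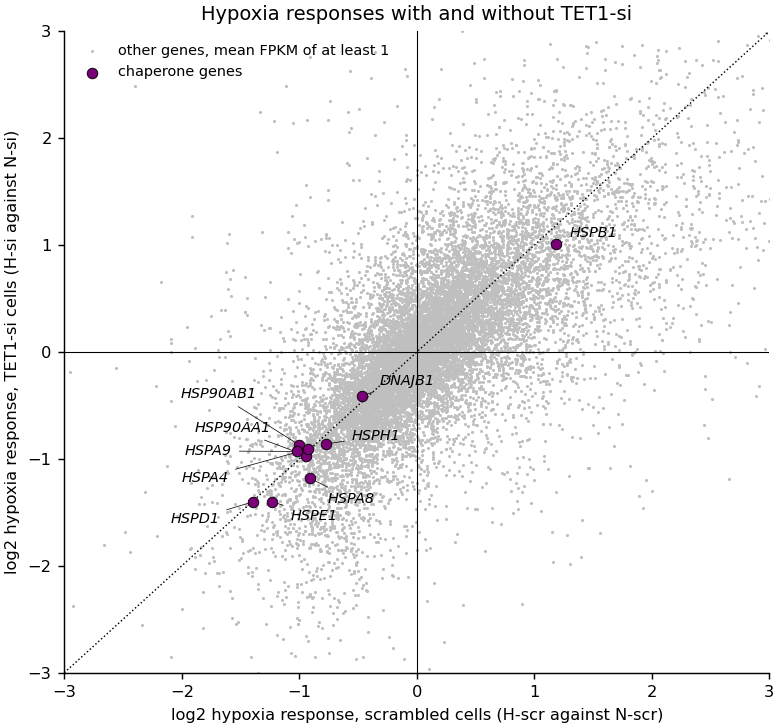
Log2 hypoxia response in TET1-si cells (y axis) against that in scrambled cells (x axis) for the 10 chaperone genes (purple) and 15047 other genes (grey), of which 516 lie outside the axes. The dotted line marks equal responses, and the chaperones lie close to it, 9 at the lower left and HSPB1 at the upper right.

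The mitochondrial chaperonin pair had the largest decreases of the 10 genes. HSPD1 (ENSG00000144381, chromosome 2, 198351305 to 198381461, minus strand, hg19) encodes HSP60. It had 838, 621, 320 and 235 FPKM. The hypoxia level was 38.2% of that in normoxia in scrambled cells and 37.8% with TET1-si, so the 2 responses were nearly equal (log2 -1.39 and -1.40). HSPE1 (ENSG00000115541, chromosome 2, 198364718 to 198368181, plus strand) encodes HSP10, the lid of the HSP60 barrel. It had 548, 373, 234 and 141 FPKM in the same order, and its hypoxia levels were 42.7% and 37.8% of those in normoxia. The ratio of HSPD1 to HSPE1 stayed between 1.37 and 1.67 over the 4 libraries while each gene ranged more than 3-fold. The listed span of HSPD1 takes in that of HSPE1 on the opposite strand, and the reads are not stated to keep strand, so part of the reads of either could have been given to the other.

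HSPA9 (ENSG00000113013, chromosome 5, 137890571 to 137911133, minus strand), which encodes mortalin, the HSP70 of the mitochondrion, had 493, 385, 242 and 202 FPKM. It was at 49.2% of its normoxia level with hypoxia in scrambled cells and at 52.5% with TET1-si. Both hypoxia libraries were thus below both normoxia libraries for all 3 mitochondrial members. Summed over the 3, the mitochondrial chaperones had 1879, 1378, 797 and 578 FPKM.

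The cytosolic HSP90 genes had nearly equal levels in scrambled cells. HSP90AA1 (ENSG00000080824, chromosome 14, 102547106 to 102606036, minus strand), the stress-inducible form, had 1932, 855, 1005 and 437 FPKM. HSP90AB1 (ENSG00000096384, chromosome 6, 44214824 to 44221620, plus strand), the constitutive form, had 1970, 1541, 985 and 843 FPKM in the same order. In hypoxia HSP90AA1 was at 52.0% of its normoxia level in scrambled cells and 51.1% with TET1-si, and HSP90AB1 was 2.001-fold and 1.83-fold lower. The genes therefore moved together with oxygen and apart with TET1-si, which is taken up below.

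HSPA8 (ENSG00000109971, chromosome 11, 122928197 to 122933938, minus strand) encodes HSC70, the constitutive cytosolic HSP70. It had 2350, 2383, 1253 and 1054 FPKM, and both hypoxia libraries were lower. The log2 response to hypoxia was -0.91 with the scrambled control and -1.18 with TET1-si, the widest gap between the responses among the 10 genes.

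The HSP110 proteins, which release ADP from HSP70, are encoded by HSPA4 and HSPH1. HSPA4 (ENSG00000170606, chromosome 5, 132387654 to 132442141, plus strand) had 149, 122, 78.0 and 65.1 FPKM. HSPH1 (ENSG00000120694, chromosome 13, 31710762 to 31736525, minus strand) had 157, 151, 92.1 and 82.9 FPKM. Their log2 hypoxia responses were -0.93 and -0.77 in scrambled cells and -0.91 and -0.86 with TET1-si, smaller than those of the mitochondrial pair.

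DNAJB1 (ENSG00000132002, chromosome 19, 14625582 to 14640582, minus strand) encodes HSP40, a J-domain partner of HSP70. It had 81.6, 88.9, 59.0 and 67.1 FPKM, and its log2 hypoxia responses of -0.47 and -0.41 were the smallest of the 10 genes in size. Counting error was small beside that difference, since its 95% counting intervals ran from -0.538 to -0.398 and from -0.473 to -0.339. The ratio of HSPA8 to DNAJB1 went from 28.8 and 26.8 in normoxia (scrambled, then TET1-si) to 21.2 and 15.7 in hypoxia.

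HSPB1 (ENSG00000106211, chromosome 7, 75931861 to 75933612, plus strand), which encodes HSP27, went the other way. It had 62.3, 96.2, 141 and 194 FPKM, and both hypoxia libraries were above both normoxia libraries. The hypoxia response was 2.26-fold in scrambled cells and 2.01-fold with TET1-si. It rested on approximately 803 to 2450 reads per library, with 95% counting intervals of the log2 change from 1.060 to 1.300 and from 0.912 to 1.107. Set against HSPA8, the distance between the chaperones narrowed. HSPA8 had 37.7, 24.8, 8.88 and 5.45 times the FPKM of HSPB1.

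**Figure D3:**
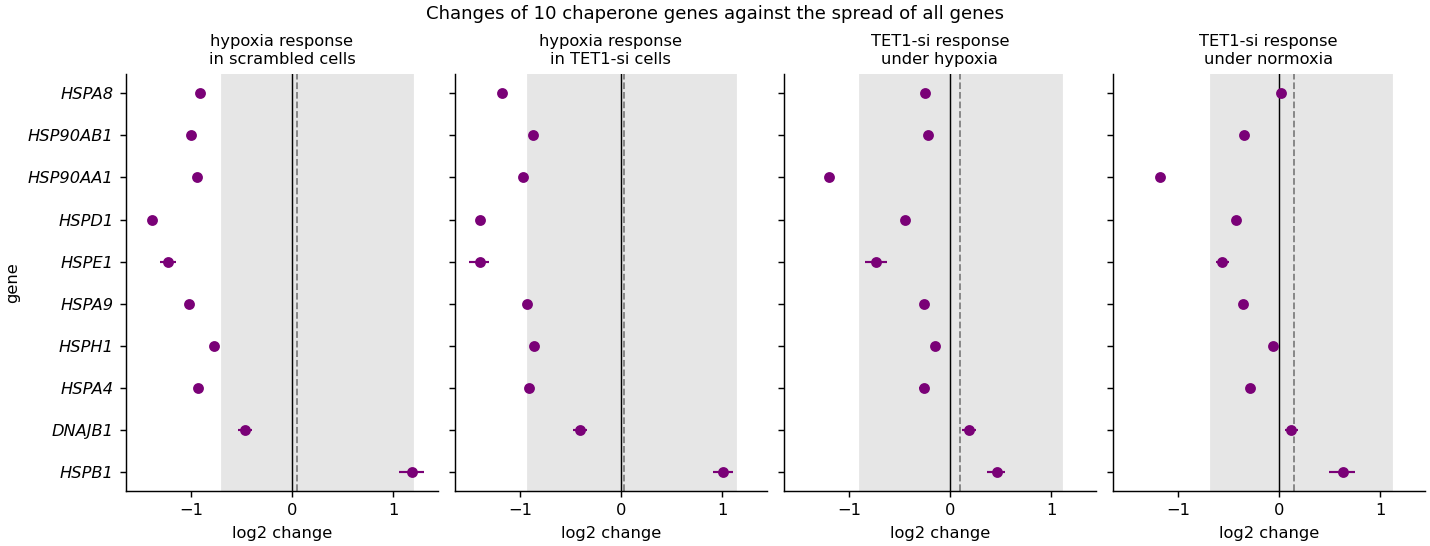
Log2 change of each chaperone gene in the hypoxia response of scrambled and of TET1-si cells and in the response to TET1-si in either oxygen state. Bars are 95% counting intervals on approximate reads, the dashed line is the median of all 15057 genes and the grey band holds all but their lowest and highest 10%. HSPB1 lies right of 0 in all 4 panels, and HSP90AA1 lies left of the band in all 4.

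The second comparison asked which chaperones differed between TET1-si and scrambled cells. The median log2 change of the 10 genes was -0.26 under hypoxia and -0.32 under normoxia, against 0.10 and 0.15 for all genes. Only HSP90AA1 was at least 2-fold lower, under hypoxia (background 8.35%) and under normoxia (background 5.56%), and no member was at least 2-fold higher (background 12.0% and 12.1%). At 1.5-fold, HSP90AA1 and HSPE1 were lower under hypoxia (background 16.8%) and HSP90AA1 under normoxia (background 12.0%), and HSPB1 was higher under normoxia (background 24.7%) but no member was under hypoxia (background 24.3%). Both comparisons share libraries with the hypoxia responses above. None of the 10 genes met the 3 RNA-Seq criteria by which the study chose genes regulated by TET1 under hypoxia (more than 2 times as high in H-scr as in H-si, higher in H-scr than in N-scr, not lower in N-scr than in N-si), and 3.84% of all genes did. HSP90AA1 met the first and the third of them but was lower, not higher, in H-scr than in N-scr.

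HSP90AA1 was at 44.2% of its scrambled level in TET1-si cells under normoxia and at 43.5% under hypoxia. HSP90AB1 was at 78.2% and 85.6%. The ratio of HSP90AA1 to HSP90AB1 was accordingly 0.980 and 1.02 in the scrambled libraries (normoxia, then hypoxia) and 0.555 and 0.518 in the TET1-si libraries. This ratio does not depend on the scaling of the libraries. It separated the 2 scrambled from the 2 TET1-si libraries, whereas the oxygen state moved it by less than 0.05.

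HSPE1 and HSPD1 came next. HSPE1 was at 68.0% of its scrambled level under normoxia and 60.1% under hypoxia, and HSPD1 at 74.1% and 73.3%. HSPA9 was at 78.1% and 83.4%, and HSPA4 at 82.0% and 83.4%. All 4 were lower in TET1-si cells in both oxygen states and under each scaling tried, by less than 2-fold. HSPH1 differed least of the lower genes, with log2 changes of -0.06 under normoxia and -0.15 under hypoxia.

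HSPB1 was higher in TET1-si cells, by 1.54-fold under normoxia and 1.37-fold under hypoxia, and its counting intervals on the log2 scale ran from 0.498 to 0.754 and from 0.369 to 0.542. DNAJB1 had log2 changes of 0.12 under normoxia and 0.19 under hypoxia, the first of which turned to -0.04 with median-of-ratios scaling. HSPA8 had 0.02 under normoxia, which turned to -0.15 with that scaling, and -0.25 under hypoxia.

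Each gene was then set beside its 50 nearest expressed protein-coding neighbours, 25 on each side. On chromosome 14 the neighbours of HSP90AA1 had a median log2 TET1-si response of -0.30 under normoxia and -0.49 under hypoxia, with HSP90AA1 at -1.18 and -1.20. Of the 50 neighbours, 5 and 7 were lower than HSP90AA1. Around HSPB1 on chromosome 7 the medians were -0.38 and -0.31, and HSPB1 itself had 0.63 and 0.46, above 46 and 42 of its neighbours. HSPA8 was the reverse case, with neighbours at 0.65 and 0.55 and itself at 0.02 and -0.25. HSP90AA1, HSPB1 and HSPA8 thus lay away from the median of their neighbours, but not every member did. HSPD1 had 21 of its 50 neighbours lower than itself in each oxygen state. DNAJB1 under hypoxia was at 0.19, with a median of 0.18 for its neighbours. The part of the neighbourhood in the TET1-si response of the members was not tested. In the hypoxia response of scrambled cells the medians of the neighbours ranged from -0.24 (HSPA8) to 0.27 (HSP90AB1), and no neighbour of HSPD1 or HSPA9 was as low as that gene.

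The promoters were searched for the heat shock element, a run of GAA units in alternating orientation that start 5 bases apart, because 9 of the 10 genes were lower together in hypoxia. The shortest element has 2 units (GAANNTTC or TTCNNGAA, which read alike on both strands). The windows came from RefSeq (GRCh38.p14) and reach from 250 bases before to 50 after an annotated start. All 10 genes matched, with 16 windows in all, since some genes have several starts. An element of at least 3 units stood in 4 of the 10 genes (HSP90AA1, HSP90AB1, HSPA8 and HSPD1), and in 0.608% of 27305 genes overall. At least 2 units stood in 7 of the 10 genes, and in 16.2% of all genes. The stretches with an element upstream of the start, found in 6 of the 10 genes, are shown so that their elements can be compared, with the GAA and TTC units of the named element and the bases between them in capitals, 5′ to 3′ on the strand of the gene. The far and near stretches of HSP90AA1 overlap, so each holds the other element, whole or in part, in lower case.

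HSP90AA1, 3 units, far element, chr14:102087104-102087148, minus strand: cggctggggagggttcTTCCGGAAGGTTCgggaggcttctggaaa
HSP90AA1, 2 units, near element, chr14:102087089-102087128, minus strand: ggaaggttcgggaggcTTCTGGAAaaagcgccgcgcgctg
HSP90AB1, 3 units, far element, chr6:44247762-44247806, plus strand: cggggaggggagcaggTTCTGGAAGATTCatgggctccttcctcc
HSP90AB1, 3 units, near element, chr6:44247815-44247859, plus strand: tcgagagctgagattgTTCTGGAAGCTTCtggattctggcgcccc
HSPA8, 3 units, far element, chr11:123062338-123062382, minus strand: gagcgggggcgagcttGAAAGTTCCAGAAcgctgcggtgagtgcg
HSPA8, 3 units, near element, chr11:123062163-123062207, minus strand: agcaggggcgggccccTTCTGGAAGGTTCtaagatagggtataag
HSPD1, 4 units, chr2:197500052-197500090, minus strand: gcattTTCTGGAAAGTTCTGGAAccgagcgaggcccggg
DNAJB1, 2 units, far element, chr19:14518451-14518490, minus strand: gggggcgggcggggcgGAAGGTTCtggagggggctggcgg
DNAJB1, 2 units, near element, chr19:14518421-14518460, minus strand: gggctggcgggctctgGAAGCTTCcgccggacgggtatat
HSPB1, 2 units, chr7:76302475-76302514, plus strand: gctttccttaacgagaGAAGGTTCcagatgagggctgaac

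The elements of 3 or 4 units began between 55 and 245 bases before the start. The near element of HSPA8 began 55 bases before it, the far element of HSP90AA1 88 bases, and those of HSP90AB1 112 and 165 bases. HSPD1 and HSPE1 are transcribed away from each other, and the downstream start of HSPD1 lies 539 bases from that of HSPE1. The 4-unit element lies between them, 228 to 245 bases before this HSPD1 start and 294 to 311 bases before that of HSPE1, just outside the HSPE1 window. The upstream HSPD1 start lies 105 bases from that of HSPE1, with the element downstream of it and none in its window. HSPA9 had 2 units across its start. The windows of HSPA4, HSPH1 and HSPE1 held no run of 2 or more units, and bases outside the windows were not searched. Genes with and without an element in their windows were lower in hypoxia. In scrambled cells HSPA4, HSPH1 and HSPE1, without an element in their windows, were at 52.3%, 58.6% and 42.7% of their normoxia level. Of the genes with 3 or 4 units, HSP90AA1, HSPA8 and HSPD1 were at 52.0%, 53.3% and 38.2%, and HSP90AB1 was 2.001-fold lower. DNAJB1 and HSPB1, which have 2 units, differed in direction. A match in letters is not a bound site, and the part of the element in the hypoxia response was not tested.

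The core of the hypoxia response element (ACGTG or GCGTG, either strand, overlaps included) stood in at least 1 window of 7 of the 10 genes, against 52.4% of all genes. The windows of HSPA8, HSPH1 and HSPB1 held none.

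**Figure D4:**
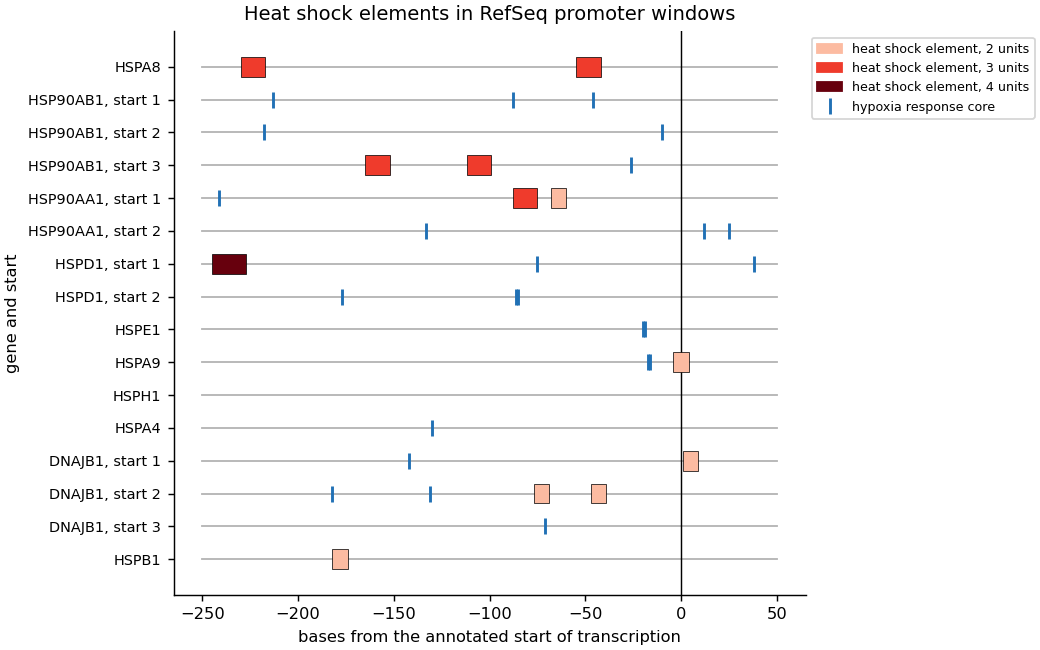
Position of heat shock elements (boxes, coloured by their number of units) and hypoxia response cores (blue ticks) in bases from the annotated start, for the 16 RefSeq promoter windows of the 10 genes. Elements of 3 or 4 units stand before 1 start each of HSPA8, HSP90AB1, HSP90AA1 and HSPD1, and none stands in the windows of HSPA4, HSPH1 and HSPE1.

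The wider chaperone network was described with 9 lists of 89 genes, written from general knowledge. Of these, 79 averaged 1 FPKM or more and were compared, and DNAJC7 and UNC45A were left out because their gene IDs stand on more than 1 row. Under hypoxia 63 of the 79 were lower in scrambled cells, 5 of them past 2-fold, and 2 were past 2-fold higher. Of all genes 46.4% were lower, 4.53% past 2-fold, and 12.9% were past 2-fold higher. Of the same genes in TET1-si cells, 63 were lower, 15 past 2-fold, and 1 was past 2-fold higher, against 47.8%, 8.66% and 12.5% of all genes. After TET1-si, 2 were past 2-fold higher and 4 lower under hypoxia, and 3 higher and 2 lower under normoxia. Over all genes the shares were 12.0% and 8.35% under hypoxia and 12.1% and 5.56% under normoxia, so these 4 counts were not above the background. The median log2 hypoxia response of the 79 genes was -0.40 and -0.49. The list genes were not set beside their chromosomal neighbours. The part of the neighbourhood in their TET1-si responses was not tested.

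The TRiC/CCT subunits, which form the ring that folds actin and tubulin in the cytosol, had the lowest median hypoxia response of the 9 lists in both knockdown states. All 8 were lower in hypoxia in both knockdown states, with a median of -0.92 in scrambled and -1.06 in TET1-si cells. At least 2-fold lower were 1 of 8 (CCT6A) in scrambled cells and 6 of 8 with TET1-si. CCT6A had 602, 422, 289 and 134 FPKM. CCT5 had 1124, 818, 592 and 294 FPKM, and with CCT6A was at least 2-fold lower in H-si than in H-scr. CCT8 was higher in TET1-si cells, at 99.7, 170, 59.6 and 81.6 FPKM. The 6 subunits of prefoldin, which hands chains to TRiC, had medians of -0.61 and -0.62. PFDN4 had the largest response in scrambled cells (-0.89) and VBP1 in TET1-si cells (-1.27), and PFDN2 was also at least 2-fold lower there (-1.07).

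Of 13 genes listed as HSP90 co-chaperones, 12 were lower in hypoxia in both knockdown states, with medians of -0.77 and -0.85. FKBP4, an immunophilin of steroid receptor complexes, had 223, 176, 90.1 and 74.5 FPKM. FKBP5 had 13.1, 19.7, 6.45 and 6.61 FPKM. These 2 were at least 2-fold lower in both knockdown states, and STIP1, which links HSP70 to HSP90, and PTGES3, the p23 co-chaperone, in TET1-si cells alone (log2 -1.03 and -1.06, against -0.91 and -0.73 in scrambled cells). AHSA2 was the exception, with log2 changes of 0.40 and 0.65. After TET1-si, CHORDC1 (142, 273, 82.9 and 148 FPKM) and CDC37L1 (21.4, 40.5, 16.8 and 33.6 FPKM) were higher in both oxygen states. SUGT1 (84.4, 43.8, 46.1 and 27.4 FPKM) was lower in both, and PPP5C (log2 -0.84) and PTGES3 (-0.72) were lower under hypoxia, while no co-chaperone was past 2-fold on the log2(FPKM + 0.1) scale.

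The partners of HSP70 differed less with oxygen. Of 8 nucleotide exchange factors and partners, 7 were lower in hypoxia in each knockdown state, with medians of -0.20 and -0.23. BAG2, an inhibitor of the ubiquitin ligase CHIP, had 36.8, 27.0, 16.2 and 15.6 FPKM and was the only one at least 2-fold lower in scrambled cells. HSPBP1 had the largest response in TET1-si cells (-0.95). BAG1 had 12.2, 6.01, 10.6 and 5.28 FPKM, a difference by knockdown and hardly by oxygen. The heat-inducible members HSPA1A and HSPA1B, near-identical genes whose reads can be split between them, had 45.3, 70.4, 36.8 and 47.2 FPKM and 67.8, 81.0, 57.4 and 61.1 FPKM, in each case lowest in H-scr. HSPA6, a strictly heat-induced HSP70, was under 0.3 FPKM in every library. Of the other HSP70 genes, HSPA2 was higher in hypoxia (log2 0.68 and 0.39) and after TET1-si under normoxia (0.75), HSPA12A was higher after TET1-si under hypoxia (0.84), and HSPA14 was lower in hypoxia in TET1-si cells (-0.95).

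Among 15 J-domain proteins with 1 row each, DNAJB2 was past 2-fold higher with hypoxia in scrambled cells, with 16.3, 31.9, 35.3 and 56.5 FPKM. DNAJC9, a histone chaperone, was past 2-fold lower in H-si than in either N-si or H-scr, with 34.9, 22.2, 22.4 and 6.95 FPKM. DNAJA4 had 9.16, 30.6, 7.11 and 22.4 FPKM, the widest TET1-si difference of the list in normoxia (3.34-fold). DNAJC2, a ribosome-bound chaperone, was at 0.494 times its scrambled level in both oxygen states, with 68.2, 33.7, 43.5 and 21.5 FPKM.

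Of 15 further mitochondrial chaperones and proteases, 14 were lower in hypoxia in scrambled cells and 12 with TET1-si, with medians of -0.42 and -0.50. GRPEL1, the nucleotide exchange factor of mortalin, had 65.3, 55.1, 29.6 and 26.2 FPKM, at least 2-fold lower in both knockdown states. Its paralog GRPEL2 was at least 2-fold lower in TET1-si cells alone (log2 -1.10, against -0.40 in scrambled cells). DNAJC15 was the gene of this list that was at least 2-fold higher after TET1-si, under normoxia, with 18.8, 39.4, 14.9 and 27.9 FPKM.

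HSF1, named above as the factor that drives many of these genes, hardly differed in transcript level, with 78.9, 93.4, 77.1 and 82.9 FPKM. A transcript level does not measure its activity, and its part in the responses was not tested. HSF2 had 13.2, 9.77, 10.9 and 10.2 FPKM. HSF4, a heat shock factor best known from the lens, was higher in hypoxia, with 22.8, 37.9, 78.7 and 107 FPKM. The hypoxia level was 3.45-fold that of normoxia in scrambled cells and 2.83-fold with TET1-si. HSPB8, a small heat shock protein of chaperone-assisted autophagy, differed most by knockdown, with 0.0809, 3.07, 0.189 and 5.61 FPKM. The scrambled levels rested on approximately 3 and 8 reads. The ratio of H-si to H-scr was 29.7 and that of N-si to N-scr was 37.9, with counting intervals on the log2 scale from 3.817 to 6.054 and from 3.679 to 7.557. Of the 8 genes listed as other small heat shock proteins, HSPB8 and HSPB11 alone averaged 1 FPKM or more. HSPB11 had log2 changes between -0.33 and 0.51.

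**Figure D5:**
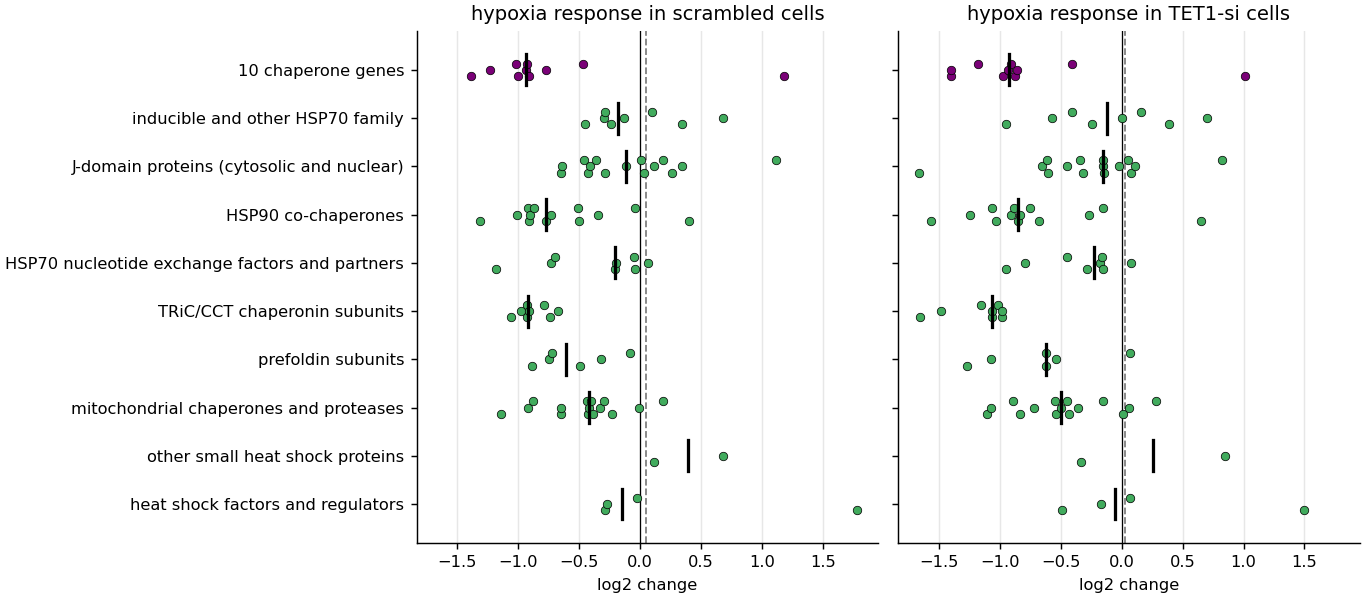
Log2 hypoxia response of the 10 chaperone genes (purple) and of the genes of 9 wider lists (green, mean FPKM of at least 1) in scrambled and in TET1-si cells. Each point is 1 gene, the black bar is the median of the list and the dashed line the median of all genes; all 8 TRiC/CCT subunits lie left of 0 in both panels, and HSF4 lies farthest to the right.

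The profile of the 10 genes was summarised as the median of their log2 levels, each centred on its own mean over the 4 libraries, which ran 0.62, 0.31, -0.33, -0.61 over the libraries. HSPA4 lay closest to it (Euclidean distance 0.025) and HSPB1 farthest (2.198). Among 9465 protein-coding genes that averaged 5 FPKM or more, the nearest that were not members were OTUD6B, PSME3, PMS1, HS6ST2 and CDKN2AIP, at distances from 0.036 to 0.066. PSME3 encodes the nuclear activator of the proteasome and had 169, 139, 87.4 and 70.5 FPKM. With 4 libraries, such closeness is a description only.

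Several of the 10 genes have processed pseudogenes of nearly the same sequence. Of 26 such rows, 14 were above 0 in some library, and the highest, HSPD1P21, reached 0.882 FPKM. How reads that match both were divided is not stated, so levels of single members carry that uncertainty.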

How the data were processed

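RNA-Seq of 4 FaDu libraries (TruSeq mRNA, HiSeq) was aligned and quantified by the authors with TopHat and Cufflinks on hg19 with Ensembl annotations. Tool versions and the Ensembl release are not given in the sources used here. The deposited values are FPKM per gene, 1 column per library, and were used as deposited. Listed start positions count from 0, and 1 was added. The labels name single-end and the methods paired-end reads.

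Changes were taken as log2(FPKM + 0.1), which understates the change of low genes. Genes on a chromosome with 1 row per gene ID and a mean FPKM of at least 1 were compared, and a gene was counted when it differed by at least 2-fold. Rows of 111 repeated gene IDs (232 rows) were left out. Strand and transcript length came from GENCODE v44lift37.

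Depth was recovered from genes with 1 exon as the value that made low FPKM whole numbers of reads, within 0.05, which it did for 97.5% to 97.9% of them. Approximate reads per gene used the canonical transcript less 212 bp. Counting intervals are 95% exact (Clopper-Pearson) and cover counting error only. The depth search and the fold count were tested on simulated data. Python 3.11.15, scipy 1.17.1 and pandas 2.3.3 were used.

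The 10 genes and the 9 lists were chosen with earlier results of these data known. Named from each list were the genes of largest change in each contrast at a mean FPKM of at least 5, and those behind counts of 5 or fewer. HSPA1A, HSPA1B, HSPA6, HSPB8, HSF1, HSF2, AHSA2, SUGT1 and PPP5C were added after their values were seen. Alternatives were other pseudocounts, filters, scalings and a 1.5-fold limit.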

Additional observations from a re-analysis of the deposited data

Results flagged for a closer look

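HSPA8 and VBP1 were flagged because TET1-si went in opposite directions in the 2 oxygen states, with both counting intervals away from 0. The same held in the wider lists for DNAJC5 (log2 0.22 under normoxia, -0.13 under hypoxia) and DNAJC21 (0.28 and -0.07). It also held for CDC37 (-0.26 and 0.10) and TRAP1 (-0.11 and 0.09). HSPA8 had a log2 change of 0.02 under normoxia and -0.25 under hypoxia. VBP1, a prefoldin subunit, had 0.31 under normoxia and -0.24 under hypoxia. Whether the TET1-si responses differ was not tested, since each group had 1 library, and median-of-ratios and upper-quartile scaling both turned the value of HSPA8 under normoxia to -0.15.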

How the results depend on the processing

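No paired analysis was possible because the labels give no replicate numbers and each group had 1 library. The hypoxia response is given within each knockdown state instead, and leaving out a library would remove its group. No value of a single member past 2-fold changed sign under another pseudocount or scaling. That was fixed in advance, since the scalings shift a change by far less than 2-fold and members lie far above the pseudocounts. Sign changed for 8 smaller values, all under median-of-ratios or upper-quartile scaling, which shift every gene alike. The median log2 change of the 10 genes in the hypoxia response of scrambled cells was -0.99 with median-of-ratios scaling, -1.0 with upper-quartile scaling and -0.82 as TPM, and in TET1-si cells -0.78 as TPM. For the TET1-si response it was -0.38, -0.37 and -0.19 under hypoxia and -0.49, -0.49 and -0.27 under normoxia. The difference of hypoxia responses was 0.04 with upper-quartile scaling. These scalings moved the median change of all genes, to between 0.16 and 0.20 as TPM. As TPM, 2 members were past 2-fold lower in H-scr. With a 1.5-fold limit, 8 were lower in hypoxia in each knockdown state, 2 were lower after TET1-si under hypoxia, and 1 was higher after TET1-si under normoxia. In the wider lists, that limit gave 4 higher and 29 lower genes for hypoxia with the scrambled control and 5 and 34 with TET1-si, and for TET1-si 9 and 11 under hypoxia and 13 and 5 under normoxia. TPM gave 3 and 7 genes lower with hypoxia (scrambled, then TET1-si), and 2 and 0 lower after TET1-si under hypoxia and normoxia. A pseudocount of 1 left 0 genes lower after TET1-si under normoxia, and no filter gave 4. No filter also gave 4 genes higher in hypoxia in TET1-si cells, and a mean FPKM of at least 5 left 1 gene higher after TET1-si under hypoxia. Depth limits HSPB8, which had few reads in scrambled cells.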
